A study of Mus musculus with 8 samples.

Results

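The genes described here are those of the autophagy machinery, read in the RNA that antibodies against CPEB1 and CPEB4 brought down from mouse striatum. The list holds 39 genes chosen by name, each represented by the probe set with the highest mean over all arrays among those annotated to that gene alone. By that rule 34 of the 39 were found among the 17097 genes named on the array. Atg4a, Atg4d, Map1lc3b, Sqstm1 and Optn had no probe set of their own in the annotation and were not analysed here. Of the 34, 27 passed the filter on low values and were tested among 11345 genes. The other 7, Rb1cc1, Pik3c3, Atg14, Atg9a, Atg10, Atg4c and Lamp2, had means from 3.13 to 4.09 on the log2 scale, below the filter at 4.23. Atg14 lay just below it, at 4.09, and Uvrag (4.29), Atg2b (4.34), Atg3 (4.39) and Atg12 (4.44) lay just above.

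Autophagy encloses cytoplasm in a double membrane, the autophagosome, and delivers it to lysosomes for breakdown. A protein kinase complex built on ULK1 starts the process, a class III PI3-kinase complex built on BECN1 marks the forming membrane with the lipid PI3P, and the WIPI proteins read that mark. A pair of ubiquitin-like conjugation reactions then attaches the Atg8 proteins (the LC3 and GABARAP families) to the membrane, where they hold cargo receptors. Neurons depend on the process to clear aggregated proteins and old organelles. CPEB1 and CPEB4 are cytoplasmic polyadenylation element binding proteins, which bind mRNA in its untranslated end and control the length of its poly(A) tail and its translation.

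Striata of male WT and HD mice, 7 to 8 months old, were pooled by genotype, and 4 mice are named in the design text, without saying whether that number is per genotype. The labels name neither the HD line nor its allele; HD is the common short form of Huntington's disease. Each pooled lysate was fixed with formaldehyde and cleared with bare beads. It gave 4 fractions. One is the input, an aliquot of the lysate, and the others hold the RNA brought down by anti-CPEB1, by anti-CPEB4 or, as the control for unspecific binding, by rabbit IgG. Every fraction of every pool has 1 array, so 8 arrays in all, with no replicate of a pool and no measure of the spread between animals. In the pairs of values below the WT pool comes first and the HD pool second, and all values are deposited log2 values unless called differences.

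The arrays differed in how many genes they held at high values. Of the 11345 genes, 1810 and 1553 lay above 8 on the CPEB4 arrays, 924 and 648 on the IgG arrays, and 770 to 1607 on the other 4. The 64 Affymetrix control probe sets had means of 6.75 and 7.03 on the CPEB4 arrays and 7.26 to 7.54 on the other 6. Among 9 measured medium spiny neuron markers, Ppp1r1b, Penk, Rgs9 and Pde10a stood above 8 in both inputs. The dopamine receptor gene Drd1 (4.53 and 4.47) and Tac1 (3.22 and 3.92) stood near or below the filter there.

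Which autophagy mRNAs came down with CPEB4 was asked against IgG. Becn1 and Atg13 were higher with CPEB4, by 9.87-fold and 4.94-fold, and no tested member was lower (limma, adjusted p under 0.05 over all genes tested). That is 2 of 27, where 2.33% of all genes tested were called higher and 0.0441% lower. Wipi2 (10.4-fold, adjusted p = 0.0521), Wipi1 (3.23-fold, 0.0562) and Wdfy3 (10.3-fold, 0.0643) missed the threshold narrowly.

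**Figure D1:**
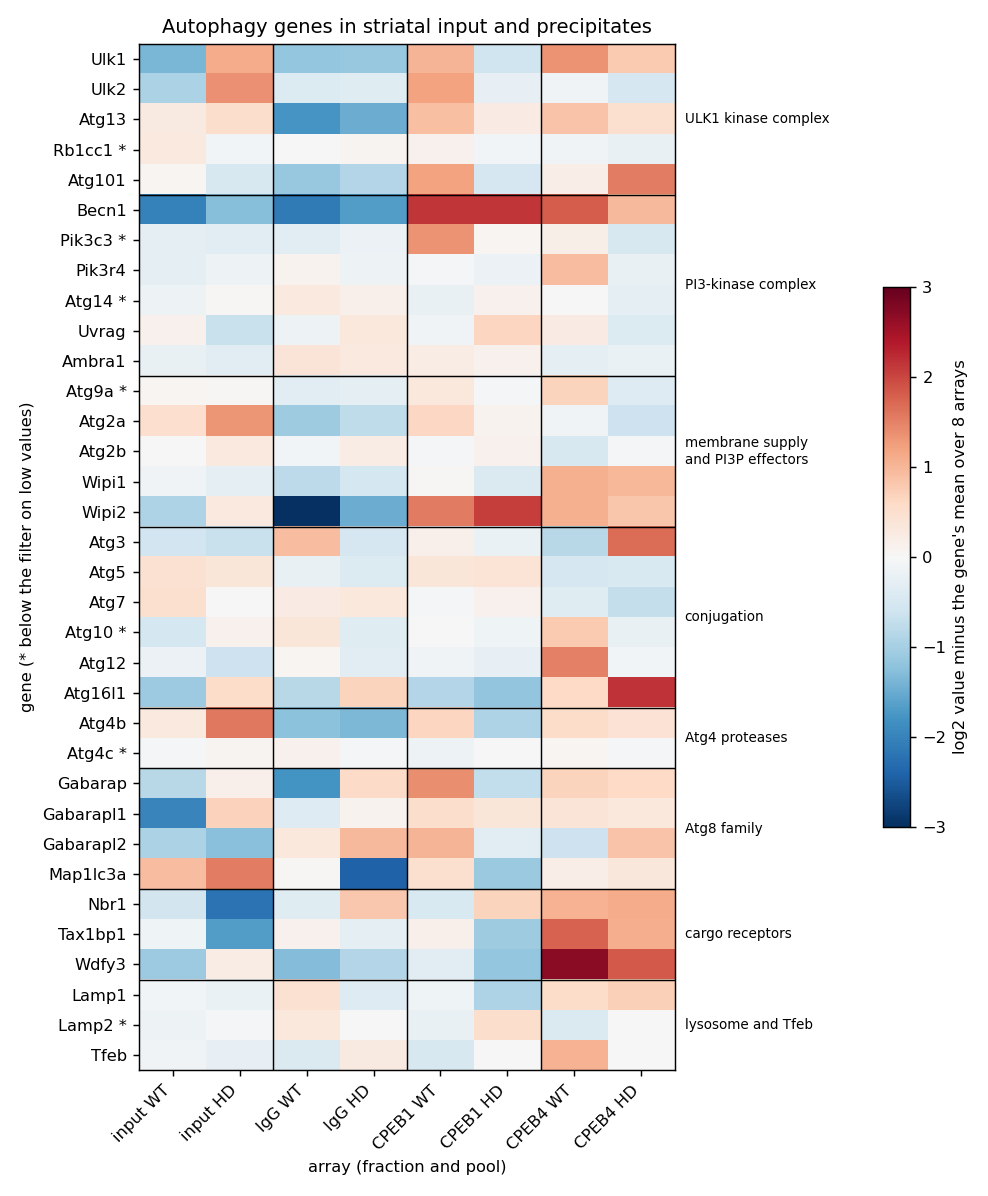
Log2 value of each of the 34 autophagy genes on each of the 8 arrays, as the difference from that gene's own mean over the arrays, with genes in rows by role and arrays in columns by fraction and pool; an asterisk marks the 7 genes below the filter. Becn1 is high in all 4 CPEB precipitates, while Wdfy3, Tax1bp1 and Wipi1 are highest in the 2 CPEB4 arrays.

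Across the 27 tested members the median log2 difference, CPEB4 minus IgG, was 0.86, against -0.06 for all genes tested, and 21 of 27 were above 0 (47.4% of all genes). The size of this median varied with the scaling and the filter. It was 0.22 against -0.24 for all genes after quantile normalization, which gives all arrays the same range (16 of 27 above 0), and 0.48 against 0.03 with cyclic loess (19 of 27). It was 0.52 over all 34 genes without the filter and 0.55 with probe sets averaged. The filter includes the CPEB4 arrays, and Atg12, whose difference is the printed median, passed only through them (mean 4.20 over the other 6 arrays). With a filter on the 4 arrays outside the comparison, which was chosen after seeing the data, the median was 0.86 over 25 members, with 19 above 0, and Becn1 alone was called. The members also had higher values on the arrays than other genes, with a median of 6.25 for their means against 5.54. Among genes above the 75th percentile of probe set means, the median was 1.36 for the 22 members there and 0.34 for all genes. By count, 10 of 27 members (Becn1, Atg13, Wipi2, Wipi1, Wdfy3, Ulk1, Atg101, Atg16l1, Atg4b and Tax1bp1) were at least 2-fold higher in both pools (14.3% of all genes) and 0 were 2-fold lower in both (0.996%). Both CPEB4 arrays lay above both IgG arrays in 15 members (29.3% of all genes) and below both in 3 (37% of all genes). At an unadjusted p under 0.05 the counts were 9 higher (15.7%) and 1 lower (7.2%), the latter being Atg7. The 7 members below the filter had differences between -0.36 and 0.45.

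**Figure D2:**
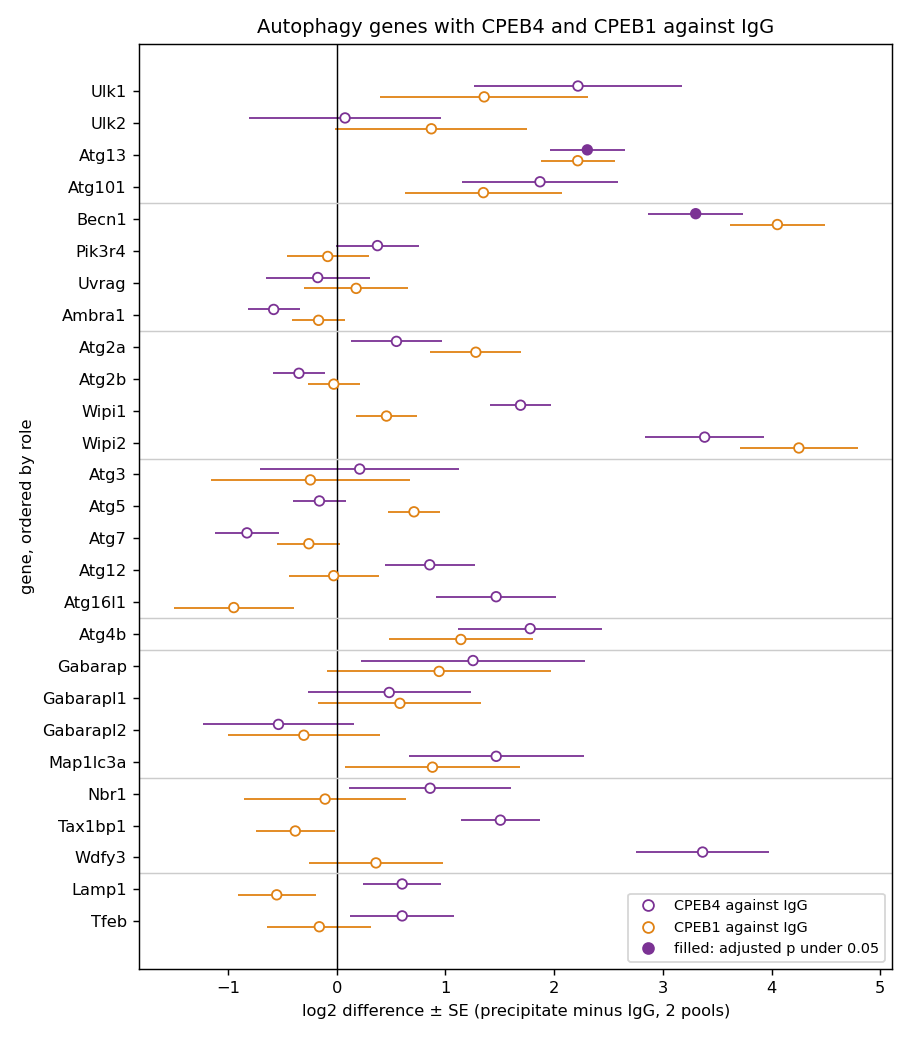
Fitted log2 difference ± SE of the 27 tested autophagy genes, CPEB4 minus IgG and CPEB1 minus IgG, over both pools; a filled point has an adjusted p under 0.05. Becn1 and Wipi2 stand far to the right with both antibodies and Wdfy3 with CPEB4 alone, and only Becn1 and Atg13 with CPEB4 are filled.

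The ULK1 complex starts autophagosome formation in answer to nutrient and energy state. Atg13, the subunit that links the kinase to its scaffold, stood at 7.84 and 8.10 in the input, 5.80 and 6.08 with IgG, 8.48 and 7.82 with CPEB1 and 8.42 and 8.06 with CPEB4. Both IgG arrays were thus the lowest of the 8, and the input was as high as the precipitates. CPEB4 minus IgG was 2.31 ± 0.34 (SE, n = 2 pools, adjusted p = 0.0445) and CPEB1 minus IgG 2.22 ± 0.34 (adjusted p = 0.176), whereas CPEB4 minus input was 0.27 ± 0.34 (95% interval -0.59 to 1.14). The call of Atg13 held after median centring (adjusted p = 0.0463) and without the pool in the model (0.0246). It was lost in the other alternatives run, with an adjusted p of 0.0503 without the filter. In some of these no gene at all was called, namely in a model of these 2 fractions alone and without an input, IgG or CPEB4 array.

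Ulk1, the kinase itself, stood at 4.81 and 7.29 in the input, 5.03 and 5.05 with IgG, 7.21 and 5.59 with CPEB1 and 7.55 and 6.98 with CPEB4. It was low in the WT input and in both IgG arrays and high in the HD input, so that the WT and HD pools differ more in input than with CPEB4. Its paralog Ulk2 stood at 5.56 and 7.89 in the input, 6.09 and 6.15 with IgG, 7.72 and 6.26 with CPEB1 and 6.39 and 6.003 with CPEB4, highest in the HD input and the WT CPEB1 array. Atg101, which stabilises ATG13, stood at 6.27 and 5.75 in the input, 5.09 and 5.35 with IgG, 7.42 and 5.72 with CPEB1 and 6.42 and 7.75 with CPEB4, above IgG in both pools with both antibodies. The differences from IgG with CPEB4 were 2.22 ± 0.96 for Ulk1, 0.08 ± 0.88 for Ulk2 and 1.87 ± 0.72 for Atg101, and none of these passed (adjusted p = 0.24, 0.96 and 0.212). The second Ulk1 probe set, also above the filter, lay below IgG with CPEB4 in both pools (differences of -0.57 and -0.44). Rb1cc1, the scaffold FIP200, lay below the filter.

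In the PI3-kinase complex the signal was that of 1 gene. Becn1 encodes Beclin 1, the subunit on which the complex is regulated. It stood at 4.39 and 5.16 in the input, 4.30 and 4.75 with IgG, 8.58 and 8.58 with CPEB1 and 8.24 and 7.41 with CPEB4. All 4 CPEB precipitates lay at 7.41 or above and all 4 control arrays at 5.16 or below, so the groups did not overlap. Against IgG the difference was 3.30 ± 0.44 with CPEB4 (adjusted p = 0.0379) and 4.05 ± 0.44 with CPEB1 (adjusted p = 0.121, not called). Against input it was 3.05 ± 0.44 with CPEB4 (adjusted p = 0.05003, just outside the threshold) and 3.80 ± 0.44 with CPEB1 (adjusted p = 0.109). Counted from the largest, Becn1 ranked 186 among the 11345 genes for CPEB4 over IgG and 17 for CPEB1 over IgG. IgG and input differed little for this gene (-0.25 ± 0.44).

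The CPEB4 call of Becn1 was lost after quantile normalization (2.75, adjusted p = 0.0753), in a model restricted to these 2 fractions (adjusted p = 0.0894) and without any 1 of the 8 arrays (2.68 to 3.92). In that restricted model, and without an input, IgG or CPEB4 array, no gene at all was called. The loss there is thus not particular to Becn1. Under the other 8 alternatives the call of Becn1 held, with adjusted p from 0.0208 to 0.0461.

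Its partners in the complex showed no such pattern. Pik3r4, the regulatory subunit VPS15, stood at 5.96 and 6.10 in the input, 6.35 and 6.11 with IgG, 6.20 and 6.09 with CPEB1 and 7.17 and 6.03 with CPEB4, with only the WT CPEB4 array raised. Uvrag, which takes the place of ATG14 in another form of the complex, stood at 4.43 and 3.63 in the input, 4.14 and 4.62 with IgG, 4.17 and 4.94 with CPEB1 and 4.53 and 3.88 with CPEB4, close to the filter throughout. Ambra1, a Beclin 1 regulator, stood at 5.54 and 5.45 in the input, 6.16 and 6.05 with IgG, 5.99 and 5.89 with CPEB1 and 5.48 and 5.57 with CPEB4, with both CPEB4 arrays below both IgG arrays by a small margin. CPEB4 minus IgG was 0.38 ± 0.38 for Pik3r4, -0.17 ± 0.48 for Uvrag and -0.58 ± 0.24 for Ambra1, none of them called. The catalytic subunit gene Pik3c3 was below the filter, with its highest value, 4.84, on the WT CPEB1 array.

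**Figure D3:**
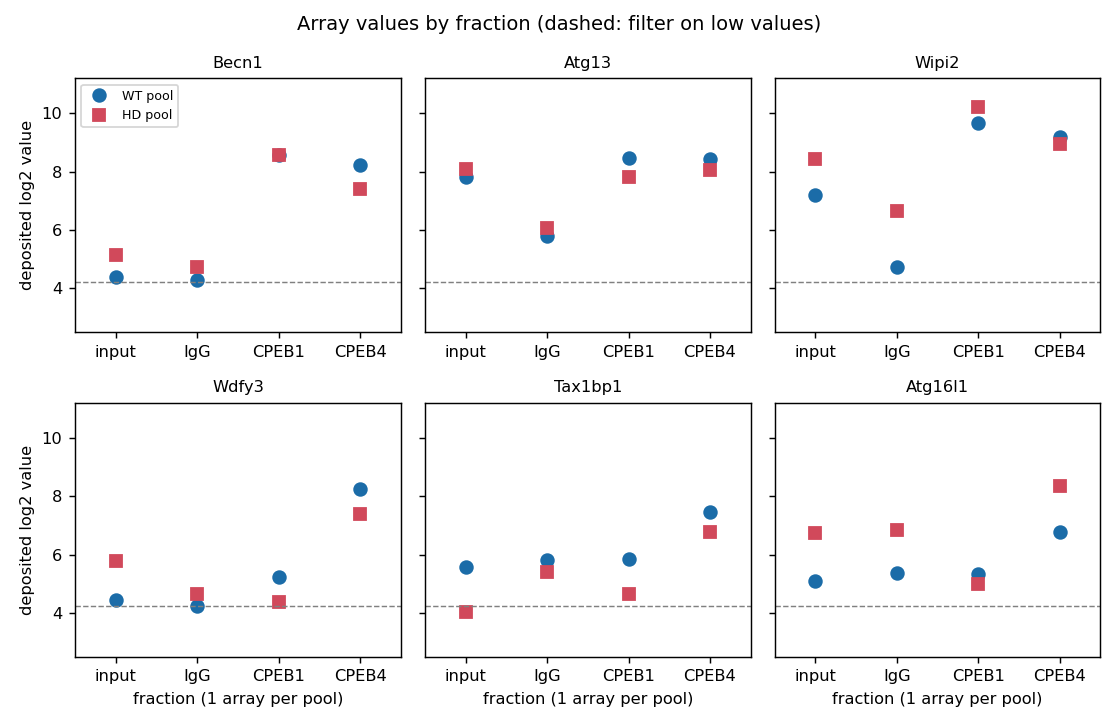
Deposited log2 values of 6 autophagy genes by fraction, 1 point per array, circles for the WT pool and squares for the HD pool; the dashed line is the filter at 4.23. Becn1 is at most 5.16 in input and IgG and at least 7.41 with either antibody, Atg13 is low with IgG alone, and Wdfy3 and Tax1bp1 are high only in the CPEB4 fraction.

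Among the genes of membrane supply and PI3P reading, the WIPI genes stood out. Wipi2, which recruits the conjugation enzymes to PI3P, stood at 7.20 and 8.43 in the input, 4.74 and 6.65 with IgG, 9.68 and 10.21 with CPEB1 and 9.21 and 8.95 with CPEB4. All 4 CPEB precipitates lay above both inputs, and both IgG arrays lay below them. CPEB4 minus IgG was 3.39 ± 0.55 and CPEB1 minus IgG 4.25 ± 0.55 (adjusted p = 0.127), and against input the differences were 1.27 ± 0.55 and 2.13 ± 0.55. The part of the shift that is seen against IgG alone thus goes with low IgG values (IgG minus input -2.12 ± 0.55).

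Wipi1, a related PI3P reader, stood at 6.02 and 5.87 in the input, 5.35 and 5.61 with IgG, 6.17 and 5.71 with CPEB1 and 7.21 and 7.13 with CPEB4. Its 2 CPEB4 arrays were the highest of the 8, 1.19 and 1.26 above the input of the same pool, while the CPEB1 arrays lay close to the inputs (-0.01 ± 0.28). CPEB1 minus CPEB4 was -1.23 ± 0.28 (95% interval -1.95 to -0.52, adjusted p = 0.169). Wipi1 was also called over IgG after median centring (1.85, adjusted p = 0.0471) and without the pool in the model (0.0334).

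The lipid transfer protein genes behaved otherwise. Atg2a stood at 7.18 and 8.00 in the input, 5.62 and 5.91 with IgG, 7.30 and 6.78 with CPEB1 and 6.56 and 6.07 with CPEB4, highest in the HD input and lowest with IgG. Atg2b stood at 4.36 and 4.64 in the input, 4.26 and 4.57 with IgG, 4.30 and 4.47 with CPEB1 and 3.85 and 4.28 with CPEB4, close to the filter on every array. CPEB1 minus IgG was 1.28 ± 0.42 for Atg2a and -0.03 ± 0.24 for Atg2b, neither called. Atg9a, the scramblase carried in the seed vesicles, lay below the filter, with 4.33 on the WT CPEB4 array as its highest value.

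None of the 5 tested conjugation genes passed in either direction. Atg16l1, which places the conjugation complex on the membrane, stood at 5.11 and 6.73 in the input, 5.36 and 6.86 with IgG, 5.32 and 5.01 with CPEB1 and 6.79 and 8.37 with CPEB4. It was higher in the HD pool than in the WT pool in every fraction but CPEB1, and within each pool the CPEB4 array was the highest of the 4. CPEB1 minus CPEB4 was -2.41 ± 0.55 (95% interval -3.81 to -1.01, adjusted p = 0.169). Atg3, the E2-like enzyme of Atg8 conjugation, stood at 3.81 and 3.72 in the input, 5.33 and 3.90 with IgG, 4.54 and 4.20 with CPEB1 and 3.57 and 6.07 with CPEB4, with the CPEB4 value of the HD pool the highest of all and that of the WT pool the lowest.

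Atg5, which is joined to ATG12, stood at 6.74 and 6.67 in the input, 6.07 and 5.87 with IgG, 6.65 and 6.71 with CPEB1 and 5.79 and 5.83 with CPEB4. Both CPEB4 arrays were the lowest in their pools on this probe set, and CPEB1 minus CPEB4 was 0.87 ± 0.24 (adjusted p = 0.241), the largest difference towards CPEB1 among the members. Atg7, the E1-like enzyme, stood at 6.71 and 6.22 in the input, 6.48 and 6.56 with IgG, 6.17 and 6.35 with CPEB1 and 5.86 and 5.52 with CPEB4, again lowest with CPEB4 in both pools. Another Atg7 probe set above the filter ran the other way, highest with CPEB4, at 6.09 and 5.75 in the input, 5.78 and 5.37 with IgG, 5.68 and 5.78 with CPEB1 and 6.86 and 6.43 with CPEB4. Atg12, the ubiquitin-like partner of ATG5, stood at 4.26 and 3.82 in the input, 4.50 and 4.10 with IgG, 4.34 and 4.21 with CPEB1 and 5.95 and 4.36 with CPEB4, raised in the WT CPEB4 array alone. CPEB4 minus IgG was -0.83 ± 0.29 for Atg7, the lowest among the members (adjusted p = 0.191), -0.16 ± 0.24 for Atg5 and 0.86 ± 0.42 for Atg12. Atg4b, a protease that trims Atg8 proteins, stood at 6.67 and 7.94 in the input, 5.14 and 5.02 with IgG, 7.01 and 5.44 with CPEB1 and 6.93 and 6.79 with CPEB4, lowest with IgG. Its CPEB4 minus IgG of 1.78 ± 0.66 was not called (adjusted p = 0.202), and against input it was -0.44 ± 0.66.

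The Atg8 proteins coat the autophagosome. On the probe sets used their genes had high values in every fraction, and the order of the fractions differed between the genes. Gabarap stood at 7.11 and 8.09 in the input, 6.14 and 8.51 with IgG, 9.33 and 7.21 with CPEB1 and 8.61 and 8.55 with CPEB4. Gabarapl1 stood at 7.69 and 10.38 in the input, 9.30 and 9.77 with IgG, 10.21 and 10.03 with CPEB1 and 10.05 and 9.99 with CPEB4, and Gabarapl2 at 7.44 and 7.12 in the input, 8.70 and 9.35 with IgG, 9.41 and 8.04 with CPEB1 and 7.75 and 9.23 with CPEB4. For all of these the WT and HD arrays of a fraction differed by 1.48 or more in at least 1 fraction. Some fractions still did not overlap. For Gabarap both CPEB4 arrays lay above both inputs and both IgG arrays, though by little in HD (8.55 against 8.51 with IgG). For Gabarapl1 the CPEB1 and CPEB4 arrays lay above both IgG arrays. For Gabarapl2 both inputs lay below all other arrays. Map1lc3a, which encodes LC3A, stood at 11.07 and 11.68 in the input, 10.18 and 7.72 with IgG, 10.63 and 9.03 with CPEB1 and 10.35 and 10.49 with CPEB4, highest in both inputs. CPEB4 minus IgG was 1.25 ± 1.03, 0.48 ± 0.75, -0.54 ± 0.70 and 1.47 ± 0.80 in that order, and the lowest adjusted p was 0.311, that of Map1lc3a. The median of the 4 turned from 0.87 as deposited to -0.41 under cyclic loess and -0.06 after quantile normalization. The second Map1lc3a probe set, also above the filter, had lower values and was not highest in the inputs. It stood at 5.84 and 6.92 in the input and 6.09 and 5.88 with IgG. With CPEB1 it stood at 7.53 and 5.23 and with CPEB4 at 5.70 and 7.19.

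On the probe sets used, all 3 tested cargo genes had their highest value in the CPEB4 fraction of each pool. Wdfy3 encodes the large scaffold ALFY, which brings aggregated protein to the autophagosome. It stood at 4.46 and 5.78 in the input, 4.25 and 4.67 with IgG, 5.25 and 4.39 with CPEB1 and 8.26 and 7.39 with CPEB4, with both CPEB4 arrays above the other 6. This probe set was chosen by its mean over all arrays, 5.56 against 5.07 for the second, and it led only through the CPEB4 arrays. The Wdfy3 differences with CPEB4 are thus drawn in part from the values that chose the probe set. Tax1bp1, a receptor for ubiquitinated cargo, stood at 5.58 and 4.03 in the input, 5.83 and 5.42 with IgG, 5.85 and 4.64 with CPEB1 and 7.47 and 6.79 with CPEB4, again with both CPEB4 arrays above the other 6. Nbr1, a receptor related to p62, stood at 8.11 and 6.45 in the input, 8.30 and 9.48 with IgG, 8.21 and 9.35 with CPEB1 and 9.71 and 9.79 with CPEB4, where CPEB4 exceeded the IgG array of the HD pool by only 0.31. The second Nbr1 probe set, also above the filter, ran the other way, with CPEB4 below input and IgG in both pools. It stood at 8.71 and 7.66 in the input, 8.57 and 6.78 with IgG and 7.40 and 6.705 with CPEB4.

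None of the 3 was called in any comparison of the reported model, though Wdfy3 was for CPEB4 over IgG without the pool in it (adjusted p = 0.0374). Wdfy3 differed by 3.37 ± 0.61 between CPEB4 and IgG and by -3.005 ± 0.61 between CPEB1 and CPEB4 (95% interval -4.56 to -1.45, adjusted p = 0.137). For Tax1bp1 these were 1.51 ± 0.36 (adjusted p = 0.107) and -1.89 ± 0.36 (-2.80 to -0.97, adjusted p = 0.12). For Nbr1 they were 0.86 ± 0.75 and -0.97 ± 0.75. Against input CPEB4 was higher by 2.70 for Wdfy3, 2.33 for Tax1bp1 (adjusted p = 0.0567) and 2.47 for Nbr1. The Tax1bp1 difference from input was called after median centring (2.51, adjusted p = 0.0436), with cyclic loess (2.59, 0.0342) and when eBayes was trended and robust (adjusted p = 0.0468). The CPEB1 minus CPEB4 difference was below 0 for all 3 under median centring, cyclic loess and quantile normalization alike, though for Nbr1 the CPEB4 minus IgG difference turned to -0.14 under cyclic loess and -0.03 after quantile normalization.

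Of the lysosomal members, Lamp1, a major protein of the lysosomal membrane, stood at 6.81 and 6.70 in the input, 7.34 and 6.51 with IgG, 6.77 and 5.97 with CPEB1 and 7.44 and 7.61 with CPEB4, and Lamp2 was below the filter. Tfeb, the transcription factor that drives lysosome and autophagy genes, stood at 4.74 and 4.61 in the input, 4.41 and 5.11 with IgG, 4.37 and 4.83 with CPEB1 and 5.89 and 4.83 with CPEB4, raised in the WT CPEB4 array alone. CPEB4 minus IgG was 0.60 ± 0.36 for Lamp1 and 0.60 ± 0.48 for Tfeb, and neither was called.

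A gene can have several probe sets, which read different stretches of its transcripts, and these did not always agree. Of the 34 other probe sets of tested members, 16 lay above the filter. Of those 16, 5 stood above IgG with CPEB4 in both pools and 2 with CPEB1, against 17 and 13 of the 27 chosen probe sets. The genes described next were picked after their values were seen. Becn1 had 2 more. The second was high with CPEB4 in both pools and only in the WT pool raised with CPEB1, at 3.06 and 2.85 in the input, 2.85 and 3.01 with IgG, 4.50 and 2.88 with CPEB1 and 7.22 and 5.76 with CPEB4. The third stayed between 3.51 and 4.07 everywhere. The second Wipi2 probe set stood at 6.69 and 4.78 in the input, 5.501 and 5.22 with IgG, 8.11 and 4.91 with CPEB1 and 6.39 and 5.27 with CPEB4, so it was raised in the WT CPEB1 array and little elsewhere, and the third lay between 3.60 and 4.21. The second Atg13 probe set stood at 6.37 and 6.21 in the input, 5.93 and 5.85 with IgG, 7.64 and 7.71 with CPEB1 and 7.90 and 5.39 with CPEB4, above IgG in 3 of the 4 CPEB precipitates but not in the HD CPEB4 array. The second Wdfy3 probe set, above the filter, ran against the first. Its CPEB4 values lay below IgG (-0.78 and -0.35) and input (-0.95 and -0.07), and CPEB1 minus CPEB4 was 0.72 and 0.81. The other 3 Wdfy3 probe sets, that one included, did not stand above IgG with CPEB4 in both pools, and their CPEB4 values lay between 3.07 and 4.92. Among the other 5 Wipi1 probe sets, 1 did, at 3.95 and 3.81 in the input, 4.11 and 4.21 with IgG, 3.59 and 3.76 with CPEB1 and 5.27 and 5.38 with CPEB4. The second Atg5 probe set was above IgG with CPEB4 in both pools, unlike the first, at 5.75 and 5.44 in the input, 5.39 and 5.25 with IgG, 5.24 and 7.29 with CPEB1 and 6.07 and 6.77 with CPEB4. For Gabarapl1 the second probe set differed between the pools with IgG, at 10.08 and 4.41, where the first had 9.30 and 9.77. When a gene's probe sets were averaged instead, Becn1 was called for CPEB4 over IgG at 2.26 (adjusted p = 0.0451) and Atg13 was not (1.53, adjusted p = 0.121). Among the probe sets used, those of Pik3r4, Wipi1, Gabarapl1 and Map1lc3a carry the s or x suffix by which Affymetrix marks probes that can match several transcripts.

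**Figure D4:**
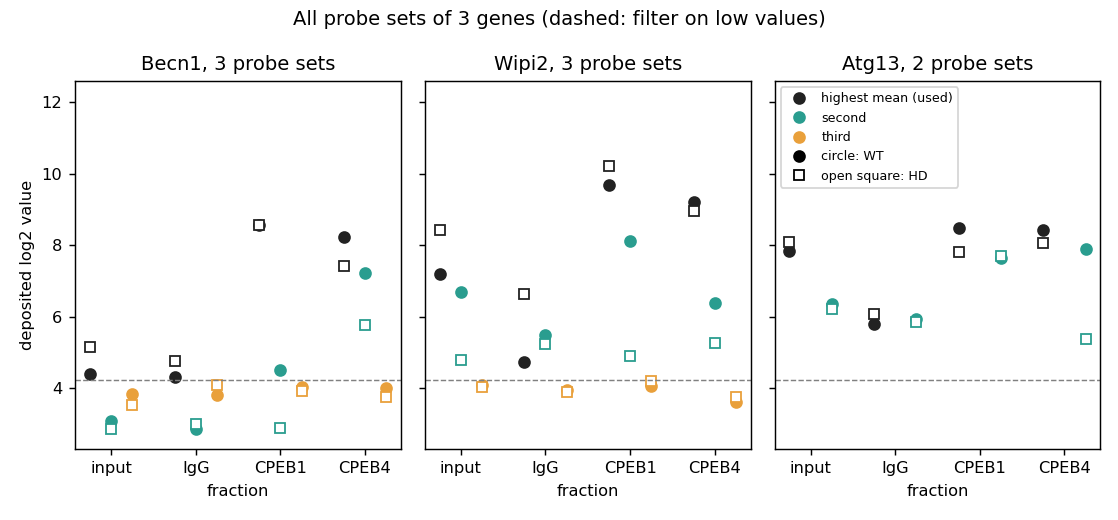
Deposited log2 values of every probe set of Becn1, Wipi2 and Atg13 by fraction, filled circles for the WT pool and open squares for the HD pool, coloured by the order of their means; the dashed line is the filter at 4.23. For Becn1 the first and second probe sets are both high with CPEB4, but only the first is high with CPEB1 in both pools, and for Wipi2 the second does not follow the first.

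With CPEB1 no autophagy gene passed against IgG, and no gene at all did (0% called in either direction). At an unadjusted p under 0.05, 5 of 27 members were higher with CPEB1, where 6.37% of all genes were, and 0 were lower (0.996%). The 5 were Wipi2, Becn1, Atg13, Atg2a and Atg5. Of the 27, 3 were 2-fold higher in both pools (4.48% of all genes), namely Becn1, Wipi2 and Atg13, and 0 were 2-fold lower (0.458%). Both CPEB1 arrays lay above both IgG arrays in 11 members (24.6% of all genes) and below both in 3 (12.5%). The members' median was 0.36, with 0.09 for all genes, and 15 of 27 were above 0 (59.5% of all genes). Under cyclic loess the median was 0.02, and without the filter 0.09. It was 0.09 without the WT IgG array, 0.15 without the WT CPEB1 array and 0.69 without the HD CPEB1 array. Conjugation, cargo and lysosomal genes had medians of -0.24, -0.11 and -0.36, and the 4 ULK1 complex genes one of 1.35.

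Whether the antibodies differed was tested as CPEB1 minus CPEB4. No member was called, where 0% of all genes were called higher and 0.141% lower. The members' median was -0.45, against 0.21 for all genes tested, and 11 of 27 lay above 0 (60.5% of all genes). The median was -0.08 without the filter, -0.09 under cyclic loess and -0.08 after quantile normalization, and 0.27 without the HD CPEB1 array. At 2-fold in both pools Wdfy3, Atg16l1, Tax1bp1 and Wipi1 were lower with CPEB1, 4 of 27 where 7.82% of all genes were, and 0 were higher (0.74%). At an unadjusted p under 0.05 the counts were 5 lower (9.41%) and 1 higher (5.92%), and without overlap of the arrays 8 lower (18.6%) and 7 higher (37%). For the 2 genes high with both antibodies on the probe sets used, the difference was 0.75 ± 0.44 for Becn1 (95% interval -0.35 to 1.86) and 0.87 ± 0.55 for Wipi2 (-0.51 to 2.25), and for Atg13 it was -0.09 ± 0.34 (-0.95 to 0.78). All 3 intervals include 0, and they also include 2-fold differences for Becn1 and Wipi2. They hold for these probe sets alone. On the second probe set CPEB1 minus CPEB4 was -2.72 and -2.88 for Becn1, 1.72 and -0.36 for Wipi2 and -0.26 and 2.32 for Atg13. The 3 comparisons above share arrays, so their values are not independent of each other.

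Against the input, the lysate itself, 0 of 27 members passed with CPEB4 (1.34% of all genes were called higher and 0.0176% lower), 0 with CPEB1 (0.0176% and 0%) and 0 with IgG (0.0176% and 0.00881%). At an unadjusted p under 0.05 the counts for CPEB4 were 7 higher and 3 lower, with 13.2% and 12.9% of all genes. For CPEB1 they were 2 higher and 0 lower (5.42% and 2.65%), and for IgG 1 higher and 6 lower (3.15% and 6.6%). At 2-fold in both pools, 6 members were higher with CPEB4 (11.9% of all genes), which were Becn1, Wipi1, Atg16l1, Nbr1, Tax1bp1 and Wdfy3, and 0 lower (1.79%). The second Nbr1 probe set lay below input with CPEB4 in both pools. With CPEB1 they were Becn1 and Wipi2 (2 of 27, against 3.49%) and 0 lower (1.18%). With IgG they were Gabarapl2 upward (1 of 27, against 1.67%) and Atg13, Atg2a, Wipi2 and Atg4b downward (4 of 27, against 3.34%). Without overlap of the arrays, the counts higher and lower were 13 and 5 for CPEB4 (25.7% and 39.1% of all genes), 6 and 1 for CPEB1 (17.6% and 18.7%) and 5 and 8 for IgG (16.6% and 30%). Above 0 lay 20 members for CPEB4 (43.8%), 16 for CPEB1 (49%) and 13 for IgG (40.9%). The members' medians were 0.98, 0.23 and -0.08, with -0.15, -0.01 and -0.11 for all genes. On the probe sets used, the largest differences of IgG from input were downward, for Map1lc3a (-2.42 ± 0.80), Atg4b (-2.22 ± 0.66), Wipi2 (-2.12 ± 0.55), Atg13 (-2.03 ± 0.34) and Atg2a (-1.83 ± 0.42). Upward they were those of Gabarapl2 (1.75 ± 0.70) and Nbr1 (1.61 ± 0.75). A gene low with IgG stands high in both comparisons with IgG, as Atg13 does without standing above input. On the probe sets used, Becn1, Wdfy3, Tax1bp1, Wipi1 and Atg16l1 were at least 2-fold higher with CPEB4 against either control in both pools. The second Wdfy3 probe set lay below either control with CPEB4 in both pools.

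The HD and WT pools were compared within each fraction, 1 array against 1, with no test. In the input, 7 of 27 members were at least 2-fold higher in HD (11.3% of all genes) and 2 at least 2-fold lower (4.43%). Higher were Gabarapl1 (by 2.69), Ulk1 (2.48), Ulk2 (2.33), Atg16l1 (1.63), Wdfy3 (1.32), Atg4b (1.27) and Wipi2 (1.23), and lower the receptors Nbr1 (-1.66) and Tax1bp1 (-1.55). In whole tissue, fewer cells of a type and less RNA per cell cannot be told apart. The choroid plexus list, 4 of 4 genes measured, had a mean of 5.06 to 5.99 on the WT arrays and 6.31 to 7.05 on the HD arrays, with Ttr at 6.60 and 10.49 in the input, 9.43 and 10.79 with IgG, 9.47 and 10.92 with CPEB1 and 9.02 and 11.13 with CPEB4. Ttr and, in the input, Clic6 (4.68 and 8.45) carry that difference, while Folr1 (4.25 and 4.31) and Kl (4.73 and 4.94) moved little and Clic6 was lower in HD with CPEB1 (5.66 and 4.94). Single markers of other cells also differed in the input, but the genes of a list did not move together. Among astrocyte genes Gfap (6.13 and 8.61), Gja1 (7.13 and 9.42) and, slightly, Slc1a3 were higher in HD. Aqp4 (5.28 and 4.91) and S100b (6.55 and 6.14) were lower, and Slc1a2 and Aldoc moved little. Among medium spiny neuron genes Pdyn (6.85 and 4.95), Penk (9.64 and 8.30), Ppp1r1b and Pde10a were lower. Rgs9 (8.67 and 9.76), Drd2 (4.56 and 5.05), Bcl11b (7.83 and 8.28) and Tac1 were higher, and Drd1 moved little. With IgG the mean of the oligodendrocyte list was 8.598 in WT and 6.55 in HD. Cnp (10.69 and 6.19) and Mobp (9.14 and 5.19) fell most there, while Mag rose (6.68 and 7.14). With CPEB4 the mean of this list was 8.56 and 8.72. The mean of the medium spiny neuron list was lower in HD in every precipitate. It was 8.46 and 6.77 with IgG, 8.45 and 7.24 with CPEB1 and 8.72 and 7.646 with CPEB4. Not every gene of that list was lower, with Tac1 at 3.32 and 3.92 with CPEB1. The part of these cell types in the members' differences was not tested. For Gabarapl1 the second probe set ran the other way in the input (9.86 and 8.96), and so did that of Wipi2 (6.69 and 4.78). That of Wdfy3 was slightly lower in HD (5.26 and 4.99). Those of Atg4b (4.37 and 5.53) and Nbr1 (8.71 and 7.66) moved as the first did. The second Ulk1 probe set was alike in both (4.64 and 4.62), and the other 3 of Ulk2 lay below the filter in both inputs.

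**Figure D5:**
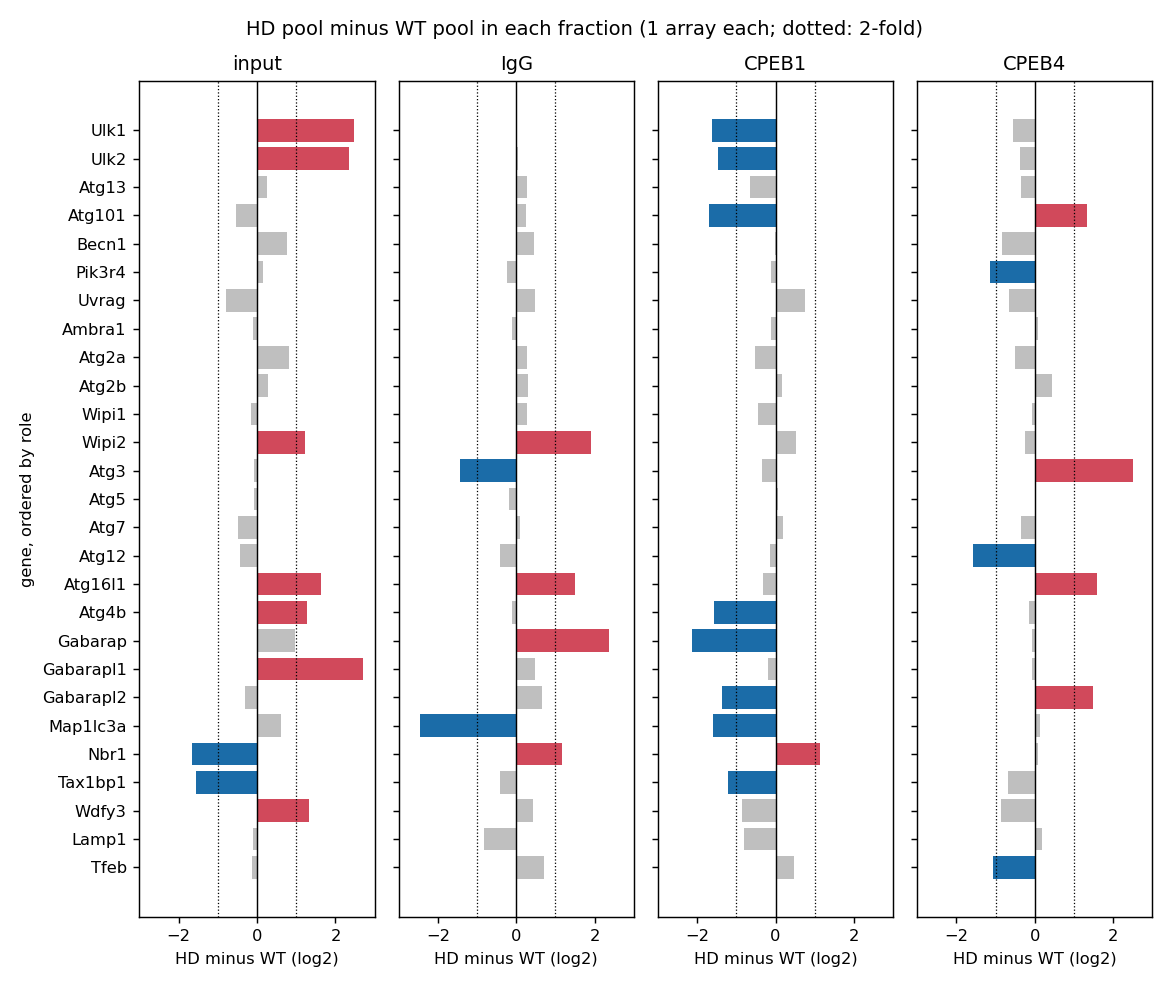
Log2 value in the HD pool minus that in the WT pool for the 27 tested autophagy genes in each fraction, from 1 array each; red bars are at least 2-fold higher in HD, blue bars at least 2-fold lower, and dotted lines mark 2-fold. Red bars prevail in the input (7 against 2 blue) and blue bars with CPEB1 (8 against 1 red). All genes tested were split the same way, with 11.3% higher and 4.43% lower in the input and 3.34% higher and 17.9% lower with CPEB1.

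With CPEB1 the pools differed in the other direction, among the members as among all genes tested. Of 27 members, 8 were at least 2-fold lower in HD (17.9% of all genes) and 1 higher (3.34%). The lower ones were Gabarap (-2.12), Atg101 (-1.71), Ulk1 (-1.63), Map1lc3a (-1.60), Atg4b (-1.57), Ulk2 (-1.46), Gabarapl2 (-1.37) and Tax1bp1 (-1.21), and Nbr1 was higher (1.14). On the probe sets used, Ulk1, Ulk2 and Atg4b thus stood higher in HD in the input and lower in HD with CPEB1. With CPEB1 the second probe set moved little, at 4.81 and 4.86 for Ulk1 and 4.55 and 4.31 for Atg4b. Becn1 stood at 8.58 and 8.58 with CPEB1 as deposited, but HD was 0.98 higher after quantile normalization, and its second probe set stood at 4.50 and 2.88. After quantile normalization the counts were 5 lower and 2 higher, with 11.6% and 8.37% of all genes, so the split depends on the scaling.

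With CPEB4, 4 members were 2-fold higher in HD (4.55% of all genes), namely Atg3 (2.504), Atg16l1 (1.58), Gabarapl2 (1.48) and Atg101 (1.33). Lower by 2-fold were 3 (11.6% of all genes), namely Atg12 (-1.58), Pik3r4 (-1.14) and Tfeb (-1.06). For each of these 3 the WT CPEB4 array was the highest of the 8. After quantile normalization only Atg12 was past 2-fold lower (6.74% of all genes), with Pik3r4 at -0.65 and Tfeb at -0.76. With IgG, 4 were higher (5.32%), Gabarap (2.37), Wipi2 (1.91), Atg16l1 (1.49) and Nbr1 (1.17), and 2 lower (10%), Map1lc3a (-2.46) and Atg3 (-1.43). The second probe set gave -0.28 for Wipi2, -1.79 for Nbr1, -0.21 for Map1lc3a and, below the filter, 0.37 for Atg3. As precipitates over IgG, Becn1 stood higher in each pool, by 3.94 and 2.66 with CPEB4 and 4.28 and 3.83 with CPEB1. Wipi2 stood higher by 4.46 and 2.31 with CPEB4 and by 4.94 and 3.56 with CPEB1, Wdfy3 with CPEB4 by 4.01 and 2.72 and Atg13 with CPEB4 by 2.63 and 1.98, the WT value being the larger each time.

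Other genes around the pathway gave no call in the comparisons of CPEB4 or CPEB1 with IgG or with each other. Of 22 tested further autophagy genes 0 passed for CPEB4 over IgG, and 10 were higher at an unadjusted p under 0.05 (15.7% of all genes) and 0 lower. Their median was 1.22. The 2 largest were Bcl2, which binds Beclin 1 and holds it back, at 3.68 ± 0.72 (adjusted p = 0.0759) and Trp53inp2 at 3.35 ± 1.18. Bcl2 stood at 7.32 and 5.41 in the input, 5.38 and 6.03 with IgG, 8.76 and 6.57 with CPEB1 and 9.81 and 8.97 with CPEB4, so both CPEB4 arrays were the highest of the 8. Tmem41b, an endoplasmic reticulum scramblase needed for autophagosome formation, came nearest to a call at 2.36 ± 0.40 (adjusted p = 0.0564). It stood at 3.97 and 3.93 in the input, 4.71 and 4.05 with IgG, 4.20 and 3.93 with CPEB1 and 6.36 and 7.13 with CPEB4, with both CPEB4 arrays above the other 6. Tmem41b and the genes Tfe3 and Scarb2 named below were picked after their values were seen.

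Of 10 tested genes of fusion with lysosomes 0 passed, 1 was higher at an unadjusted p under 0.05 and 0 lower, and the median was -0.04, with Plekhm1 at 1.93 ± 0.88 and Rab7, the late endosome GTPase, at 1.56 ± 0.30. Of 11 upstream kinase genes 0 passed, 2 were higher and 1 lower at that p, and the median was 0.39, with Tsc1, which restrains mTORC1, at 2.13 ± 0.98 and Rheb, the GTPase that activates mTORC1, at 1.74 ± 0.61. Of 19 lysosomal genes 0 passed, 6 were higher and 0 lower at that p, and the median was 0.66. Of all genes tested, 15.7% were higher and 7.2% lower at it. The proton pump subunit gene Atp6v1a was largest at 3.13 ± 1.15 and stood at 3.60 and 3.82 in the input, 6.39 and 7.17 with IgG, 7.18 and 3.48 with CPEB1 and 9.63 and 10.19 with CPEB4, and the protease gene Ctsb followed at 2.64 ± 0.82. Tfe3, a relative of Tfeb, was at 1.74 ± 0.36 and Scarb2, a lysosomal membrane protein gene, at 2.28 ± 0.45. After quantile normalization the medians were 0.67 for further autophagy genes, -0.22 for fusion, -0.11 for upstream kinases and -0.08 for lysosomal genes, with -0.24 for all genes tested.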

How the data were processed

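The authors deposited log2 values per probe set of Affymetrix mouse arrays, made with RMA (background correction, normalization and summary), per the submitters' processing notes; neither its version nor whether the 8 arrays were processed together is given in the sources used here. Per the labels, RNA was amplified over 27 cycles and 8 µg of cDNA was used per array. Of 45101 probe sets, 28898 had 1 gene symbol, 551 several and 15652 none in the platform annotation; 28689 could be matched to RefSeq (GRCm38.p6). No coordinates are printed, since the annotation names no build.

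The values were used with no further scaling. A gene was tested where its chosen probe set had a mean above 4.23, which is the median over probe sets. The test between fractions was limma (3.58.1, R 4.3.3; lmFit, then eBayes, two-sided, Benjamini-Hochberg over 11345 genes, threshold 0.05) in a model of fraction and pool over all 8 arrays, with 3 residual degrees of freedom and 2.29 from the prior. Each genotype's pool serves as a replicate, so an effect that differs by genotype counts as error, and the p-values measure only the spread between these arrays. Errors are the model's standard errors and intervals are 95% intervals from it. The script was tested on simulated arrays. HD minus WT rests on 1 array each and was counted at 2-fold.

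The members, their roles and the further lists were chosen with earlier results of these data known. Values are given for every tested member, and for the further lists for called genes or otherwise the 2 largest absolute differences in CPEB4 against IgG; exceptions are stated. Values of other probe sets are given only for some of these genes, chosen after the values were seen. The number of arrays limits the precision. Sequences of the mRNA ends that CPEB proteins bind were not used here.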

Additional observations from a re-analysis of the deposited data

Results flagged for a closer look

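The Atg3 and Gabarap results stood out because the WT and HD pools moved at least 2-fold in opposite directions under the same comparison, which was not tested since each rests on 1 array per fraction and pool. For Atg3, CPEB4 minus IgG was -1.76 in WT and 2.18 in HD, a difference of 3.93. For Gabarap, CPEB1 minus IgG was 3.19 in WT and -1.30 in HD, a difference of -4.49. The second Atg3 probe set stood at 2.95 and 2.996 with CPEB4 and 3.21 and 3.58 with IgG.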

How the results depend on the processing

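The count of members called for CPEB4 over IgG, 2 as reported, was 1 without the filter, with the 75th percentile filter, with probe sets averaged, with trended robust eBayes, with cyclic loess and with the filter on the 4 arrays outside the comparison, an alternative chosen after seeing the data (Becn1 each time). It was 0 after quantile normalization and in a model of those 2 fractions alone, 3 after median centring, and 4 with no block for the pool (Becn1, Atg13, Wdfy3 and Wipi1). Leaving out any 1 array left no member called. Without an input, IgG or CPEB4 array no gene at all was called, nor in the model of those 2 fractions alone. For CPEB4 over input, 0 as reported, the count was 2 after median centring, cyclic loess and trended robust eBayes (Becn1 and Tax1bp1) and 1 with no block for the pool. The median for CPEB4 over IgG was 0.22 after quantile normalization and 1.36 with the 75th percentile filter, its lowest and highest values. For CPEB1 over IgG the median was 0.019 with cyclic loess and 0.085 to 0.69 without 1 array. That of CPEB1 minus CPEB4 was -0.084 without the filter, -0.086 with cyclic loess and -0.080 after quantile normalization, and ranged from -0.51 to 0.27 without 1 array. For CPEB4 over input the median was 0.53 without the filter, 0.45 with averaged probe sets and 0.40 after quantile normalization (0.48 to 0.98 without 1 array), and for CPEB1 over input it was 0.0046 to 0.31 without 1 array. For IgG over input it was 0.040 without the filter, -0.37 with the 75th percentile filter, 0.0032 with averaged probe sets, 0.0060 with cyclic loess and 0.074 after quantile normalization (-0.43 to 0.20 without 1 array). Members past 2-fold between HD and WT numbered 4 in the input and 5 with CPEB1 when probe sets were averaged, and 4 with CPEB4 under the 75th percentile filter. At 1.5-fold they numbered 14 in the input and 11 with CPEB4, and at 3-fold 5 in the input, 3 with IgG, 4 with CPEB1 and 1 with CPEB4. The causes were not tested. In 198 of 248 combinations of a count or median with a setting, the count stayed within 1.5 times the reported one or the median within 1 SD between the pools. Part of that tally was fixed in advance. A median does not change when an array outside its comparison is left out. The count for CPEB1 over IgG was 0 in settings where no gene at all was called. The SD for CPEB4 over IgG was 0.73, so that its median of 0.22 counted as unchanged. The labels give no replicate numbers, but each pool gave all 4 fractions, so the reported model, with the pool as its block, is the paired analysis. The number of arrays, 1 per fraction and pool, limits every value.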
